A study of Mus musculus with 8 samples.

Results

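The epidermal barrier ceramide genes examined here were Elovl1, Elovl4, Cers3, Cyp4f39, Pnpla1, Ugcg, Abca12 and Smpd1. They are 8 of the 55536 genes in the count table, chosen by symbol, and each symbol matched 1 row. RNA came from MIN6 cells, a mouse pancreatic tumour line that makes insulin as β-cells do, labelled as wild type in genotype. Cells were transfected for 48 h with Lipofectamine 3000, a lipid reagent that carries DNA into cells. The 4 control libraries came from cells given the empty vector pcDNA 3, and the 4 Klf4 libraries from cells given pGloMyc-Klf4, which carries the transcription factor Klf4. The vector names differ, so a vector effect and a Klf4 effect cannot be told apart. The series calls the libraries biological replicates, and each of 2 labelled batches holds 2 libraries of each group. A transfected culture holds cells that took up the plasmid and cells that did not, and in bulk RNA fewer expressing cells and less RNA per cell cannot be told apart. Islets are mentioned where RNA extraction is described, whereas every sample is named as MIN6.

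The outer layer of the skin holds water through sheets of lipid rich in ceramides with unusually long acyl chains. ELOVL1 and ELOVL4 lengthen the fatty acid, the cytochrome P450 CYP4F39 hydroxylates its far end, and CERS3 joins it to a sphingoid base. PNPLA1 attaches linoleate to the hydroxylated end to give acylceramide. UGCG adds glucose, ABCA12 loads the lipid into lamellar granules, and SMPD1, acid sphingomyelinase, releases ceramide from sphingomyelin. Klf4 is known in skin as a factor required for the barrier, and none of the acylceramide steps is a known function of β-cells, whereas UGCG and SMPD1 act in most cell types.

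Total counts were 45417853 to 52731176 per library, so that 1 read corresponded to 0.019 to 0.0221 CPM, a gene's count scaled to the effective size of its library. Klf4 itself, which checks the labels, stood at 40.1 ± 3.11 CPM in control and 5040.5 ± 567.2 CPM in Klf4 libraries (SD, n = 4), with plasmid and endogenous transcripts counted together. Of 18266 genes tested with a batch term, 36.6% passed an adjusted p of 0.05, 21.1% higher and 15.5% lower in Klf4 libraries. That split depended on the scaling: 3856 genes were higher and 2828 lower with TMM factors, against 4370 and 1644 with factors from genes of an average log2 CPM of at least 6. In CPM, all 4 Klf4 libraries lay above all 4 control libraries for 17.2% of tested genes and below them for 8.93%. Of 9 β-cell markers, all detected and all tested, 0 were higher and 5 lower. Those 5 had log2 fold changes from -0.07 (Iapp) to -0.22 (Slc30a8), while Ins1, Ins2, Slc2a2 and Nkx6-1 did not pass. All 5 passed within batch 2, but within batch 1 only Slc30a8 did, and Iapp, G6pc2, Pdx1 and Mafa did not. Mafa was at -0.05 in batch 1 and -0.30 in batch 2. That difference passed edgeR's test of the batch by plasmid interaction (adjusted p = 0.00817). How these 5 calls depend on the scaling was not tested. The summed level of the 9 markers was 25306 to 32061 CPM in control and 23628 to 32318 CPM in Klf4 libraries.

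In the Klf4 libraries 4 of the barrier ceramide genes were higher than in control. Cyp4f39 rose from a level near the detection limit by a fitted 158-fold and Pnpla1 by 32.8-fold, while Elovl1 rose by 1.62-fold and Elovl4 by 1.22-fold. A rise of at least 1 on the log2 scale, which Cyp4f39 and Pnpla1 reached, was found for 8.5% of tested genes. Ugcg, Smpd1 and Cers3 did not pass the test, and Abca12 had too few counts to be tested. In all, 7 of the 8 genes passed the filter on low counts, and Cyp4f39 and Pnpla1 passed it only through their Klf4 libraries. That route favours genes that are higher in Klf4 libraries, so the count of 4 of 7 is not evidence about the group.

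Cyp4f39 and Pnpla1 both lie on chromosome 17 in GRCm38, and the 250 bases before each of their starts are shown because these are the genes that moved most. They are followed by those of Elovl1, which rose less, and Smpd1, which did not pass the test. Sequences are those of RefSeq for GRCm38.p6, where all 8 genes had an entry, and they are written 5′ to 3′ on the gene's strand. Capitals mark matches on either strand to GGGNGTGG, a GC-rich string of the kind that Krüppel-like factors bind.
Cyp4f39, chr17:32452473-32452722, plus strand: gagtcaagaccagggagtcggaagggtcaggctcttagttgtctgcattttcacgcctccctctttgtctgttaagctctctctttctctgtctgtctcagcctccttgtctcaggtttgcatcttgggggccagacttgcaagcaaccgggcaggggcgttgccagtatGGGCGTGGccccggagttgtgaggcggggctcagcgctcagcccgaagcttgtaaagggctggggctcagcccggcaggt
Pnpla1, chr17:28858161-28858410, plus strand: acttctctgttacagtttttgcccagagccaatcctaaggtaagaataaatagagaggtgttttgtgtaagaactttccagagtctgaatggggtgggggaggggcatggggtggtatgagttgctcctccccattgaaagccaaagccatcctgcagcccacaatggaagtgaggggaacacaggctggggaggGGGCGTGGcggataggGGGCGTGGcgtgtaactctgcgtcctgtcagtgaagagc
Elovl1, chr4:118427843-118428092, plus strand: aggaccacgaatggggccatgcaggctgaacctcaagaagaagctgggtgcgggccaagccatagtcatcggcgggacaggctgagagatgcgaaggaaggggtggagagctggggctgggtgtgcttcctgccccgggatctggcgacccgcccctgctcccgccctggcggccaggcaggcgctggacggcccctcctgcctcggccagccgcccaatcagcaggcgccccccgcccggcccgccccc
Smpd1, chr7:105554110-105554359, plus strand: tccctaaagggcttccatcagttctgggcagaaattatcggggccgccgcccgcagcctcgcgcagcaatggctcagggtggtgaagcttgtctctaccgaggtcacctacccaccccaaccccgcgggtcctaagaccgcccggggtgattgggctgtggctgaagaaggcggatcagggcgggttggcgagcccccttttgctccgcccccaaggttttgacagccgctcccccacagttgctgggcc
The string occurs once in the window of Cyp4f39, beginning 80 bases before the start. In Pnpla1 it occurs at 2 places, beginning 55 and 39 bases before the start. All 3 matches read GGGCGTGG. Of 32851 windows of this length, 15.9% hold GGGNGTGG at least once and 2.81% hold it 2 or more times, and 4.79% hold GGGCGTGG. The windows of Elovl4, Cers3, Ugcg, Abca12 and Smpd1 and the first window of Elovl1 hold none, while a second Elovl1 window has 1 match, 246 bases before its start. The shorter CACCC, which overlaps GGGNGTGG where N is T or G, is in 52% of all windows. Of all windows, 21.1% hold it 2 or more times and 6.92% hold it 3 or more times. It occurs 2 times in the window of Pnpla1 and 3 times in those of Elovl1 and Smpd1. Those of Cers3 and Ugcg hold it 1 time, and those of Cyp4f39, Elovl4 and Abca12 hold it 0 times. These strings were chosen with the fold changes known, and a match is a description of letters, not a binding site.

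Elovl1 (ENSMUSG00000006390, chromosome 4, 118428093 to 118432953, plus strand) makes saturated very long chain fatty acids. Its levels were 24.0, 23.5, 23.0 and 23.0 CPM in control replicates 1 to 4 and 35.1, 35.5, 39.0 and 42.2 CPM in Klf4 replicates 1 to 4. The groups did not overlap, and both batch 2 Klf4 libraries lay above both batch 1 Klf4 libraries. The mean rose from 23.4 ± 0.476 to 38.0 ± 3.33 CPM (SD, n = 4), with an exact permutation p of 0.0286, the smallest that 4 against 4 allows. Relabelling only within batches, which the design calls for, gave an exact permutation p of 0.0556, the smallest of its 36 arrangements, so that form of the test cannot pass 0.05. edgeR's quasi-likelihood test gave a log2 fold change of 0.70 (SE 0.05, adjusted p = 1.24e-10). An exon of Elovl1 overlaps Cdc20 on the opposite strand, which stood at 136.6 ± 19.1 CPM in control and 134.2 ± 8.89 CPM in Klf4 libraries (SD, n = 4). Cdc20 did not pass the test, with a log2 fold change of -0.02 (adjusted p = 0.814) that turned to 0.02 with factors from abundant genes. The share of Elovl1 transcript sequence found in Cdc20 was 0.139% of its 50-base words.

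Elovl4 (ENSMUSG00000032262, chromosome 9, 83778692 to 83806277, minus strand) makes the longest acyl chains of skin and is also active in retina and brain. Control replicates 1 to 4 had 50.6, 50.8, 49.5 and 52.5 CPM, and Klf4 replicates 1 to 4 had 59.1, 57.9, 69.8 and 62.4 CPM. The groups did not overlap, and the mean went from 50.8 ± 1.23 to 62.3 ± 5.36 CPM (SD, n = 4; exact permutation p = 0.0286, and 0.0556 within batches). The log2 fold change was 0.29 (SE 0.04, adjusted p = 8.7e-06), a smaller rise than that of Elovl1, and it ran from 0.23 without Klf4 replicate 3 to 0.33 over the alternatives.

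Cers3 (ENSMUSG00000030510, chromosome 7, 66743504 to 66823691, plus strand) is the ceramide synthase of differentiated keratinocytes and of testis. It had 15, 27, 12 and 10 counts in control replicates 1 to 4 and 17, 17, 18 and 21 in Klf4 replicates 1 to 4. The control libraries spread across the whole range of the Klf4 libraries. Its log2 fold change was 0.16 (SE 0.35, adjusted p = 0.772), with an approximate 95% interval of -0.56 to 0.88. A rise of up to 1.84-fold therefore lies within the interval, and a difference was not detectable at this depth.

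Cyp4f39 (ENSMUSG00000061126) spans bases 32452723 to 32493320 of chromosome 17 on the plus strand. Control replicates 1 to 4 held 4, 4, 7 and 1 of its reads. In Klf4 replicates 1 to 4 it had 579, 476, 821 and 871 counts, which is 11.2, 10.5, 15.6 and 16.5 CPM. Every Klf4 library was far above every control library, whose levels lay between 0.0207 and 0.142 CPM. The log2 fold change was 7.30 (SE 0.17, adjusted p = 2.9e-19), with an approximate 95% interval of 122.9-fold to 203.1-fold. By log2 fold change it ranked 129 of the 18266 genes tested. None of the 2848 different 50-base words of its transcripts occurs in a transcript of another annotated gene, the other Cyp4f genes included.

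Pnpla1 (ENSMUSG00000043286) spans bases 28858411 to 28890309 of chromosome 17 on the plus strand. Its counts were 12, 12, 4 and 15 in control and 335, 250, 432 and 498 counts in Klf4 replicates 1 to 4. The Klf4 libraries held 6.48, 5.52, 8.21 and 9.44 CPM, and the control libraries 0.0811 to 0.311 CPM, again without overlap. The log2 fold change was 5.04 (SE 0.20, adjusted p = 2.37e-15), and the approximate 95% interval ran from 24.7-fold to 43.7-fold. Of its 50-base words 13.4% occur in 5 other genes, among them Pnpla1os, the antisense gene that overlaps its exons. Pnpla1os had 1, 2, 3 and 7 counts in control and 3, 4, 8 and 3 counts in Klf4 replicates 1 to 4, which overlap and were too few to test.

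Ugcg (ENSMUSG00000028381, chromosome 4, 59189257 to 59222833, plus strand) had 55.2, 57.5, 57.5 and 55.6 CPM in control and 56.9, 58.4, 57.4 and 54.7 CPM in Klf4 replicates 1 to 4. The groups overlapped throughout, and the log2 fold change was 0.01 (SE 0.04, adjusted p = 0.876), with a 95% interval of 0.957-fold to 1.06-fold. Smpd1 (ENSMUSG00000037049, chromosome 7, 105554360 to 105558389, plus strand) had 64.7, 62.6, 61.0 and 62.3 CPM in control and 65.9, 66.4, 62.2 and 61.9 CPM in Klf4 replicates 1 to 4. Within the Klf4 group its batch 1 libraries were the higher ones. Its log2 fold change was 0.03 (SE 0.03, adjusted p = 0.487), with a 95% interval of 0.976-fold to 1.07-fold.

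Abca12 (ENSMUSG00000050296, chromosome 1, 71242276 to 71414910, minus strand) encodes the transporter whose loss causes harlequin ichthyosis. It had 5, 10, 2 and 1 counts in control and 9, 4, 10 and 9 counts in Klf4 replicates 1 to 4. The groups overlapped, with the lowest values in the batch 2 control libraries. Fitted without the filter, its log2 fold change was 0.85 (SE 0.65, adjusted p = 0.46), with an interval of -0.42 to 2.13 that leaves a rise of several fold or a small fall undetectable at this depth.

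**Figure D1:**
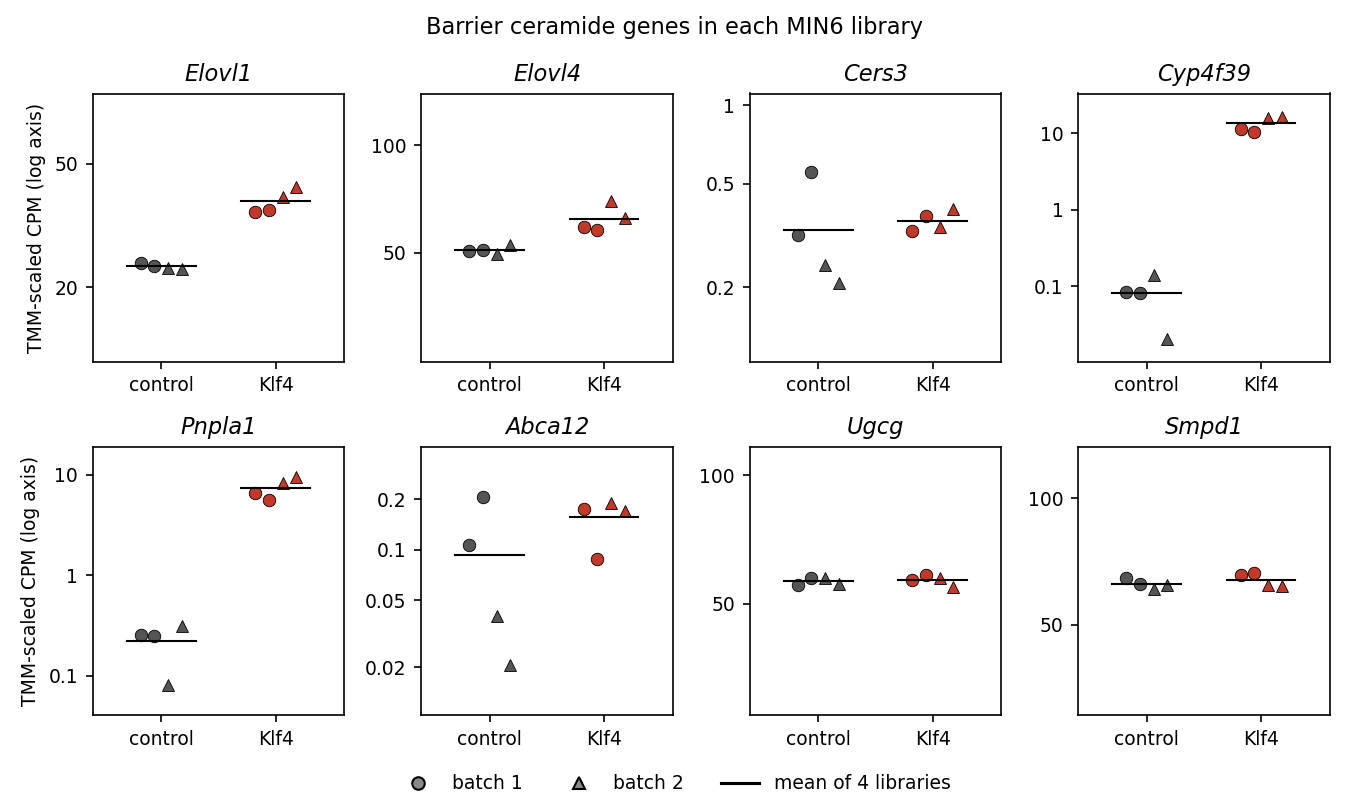
TMM-scaled CPM (log axis, a different range in each panel) of the 8 barrier ceramide genes in 4 control (grey) and 4 Klf4 (red) libraries, with circles for batch 1, triangles for batch 2 and a line at the mean. Cyp4f39 and Pnpla1 reach at most 0.311 CPM in a control library and at least 5.52 CPM in a Klf4 library, Elovl1 and Elovl4 separate by less, and the groups overlap for Cers3, Abca12, Ugcg and Smpd1.

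The genes differed widely in level, which was compared per kilobase of annotated exon. In control libraries Smpd1 was highest at 18.8 ± 0.454 CPM per kilobase, followed by Elovl4 at 16.8 ± 0.407, Ugcg at 10.8 ± 0.239 and Elovl1 at 8.57 ± 0.175 (SD, n = 4). Far below came Cers3 at 0.102 ± 0.048, Pnpla1 at 0.0462 ± 0.0205, Cyp4f39 at 0.0289 ± 0.0173 and Abca12 at 0.0063 ± 0.00562 CPM per kilobase (SD, n = 4). The first 4 did not overlap with their neighbours in this order, whereas Cers3 and Pnpla1, Pnpla1 and Cyp4f39, and Cyp4f39 and Abca12 overlapped across libraries. In Klf4 libraries Elovl4 led at 20.6 ± 1.77 CPM per kilobase, with Smpd1 overlapping it at 19.2 ± 0.706 (SD, n = 4). Elovl1 at 13.9 ± 1.22 stood above Ugcg at 10.9 ± 0.297, the reverse of their order in control. Cyp4f39 reached 4.71 ± 1.06 and Pnpla1 1.53 ± 0.362 CPM per kilobase, both above Cers3 at 0.111 ± 0.00966 and Abca12 at 0.0105 ± 0.00309 (SD, n = 4). No pair of neighbours other than Elovl4 and Smpd1 overlapped in the Klf4 libraries. Even after the rise, Cyp4f39 and Pnpla1 stayed below the lowest level of Ugcg, 10.5 CPM per kilobase.

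All 4 genes that rose did so in both batches, with the larger estimate in batch 2. The log2 fold change in batches 1 and 2 was 6.98 and 7.57 for Cyp4f39, 4.57 and 5.48 for Pnpla1, 0.57 and 0.82 for Elovl1, and 0.21 and 0.37 for Elovl4. None of these differences between batches passed edgeR's interaction test after adjustment (adjusted p = 0.85, 0.557, 0.242 and 0.404), against 0.766% of all tested genes. Elovl1 and Elovl4 had an unadjusted interaction p under 0.05 (0.008 and 0.0324), a mark that 10.6% of tested genes reached. DESeq2's Wald test of the interaction also gave 0 of the 7 genes after adjustment and 2 before it. Klf4 itself moved by 6.79 in batch 1 against 7.16 in batch 2 on the log2 scale, which passed the interaction test (adjusted p = 0.0057). Among the Klf4 libraries, replicate 4 was highest for Klf4 at 5853 CPM and also for Cyp4f39, Pnpla1 and Elovl1, whereas Elovl4 was highest in replicate 3. Replicate 2 was lowest for Klf4 at 4532 CPM and for Cyp4f39, Pnpla1 and Elovl4, whereas Elovl1 was lowest in replicate 1. Whether the Klf4 level or another difference between the batches goes with these values was not tested.

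**Figure D2:**
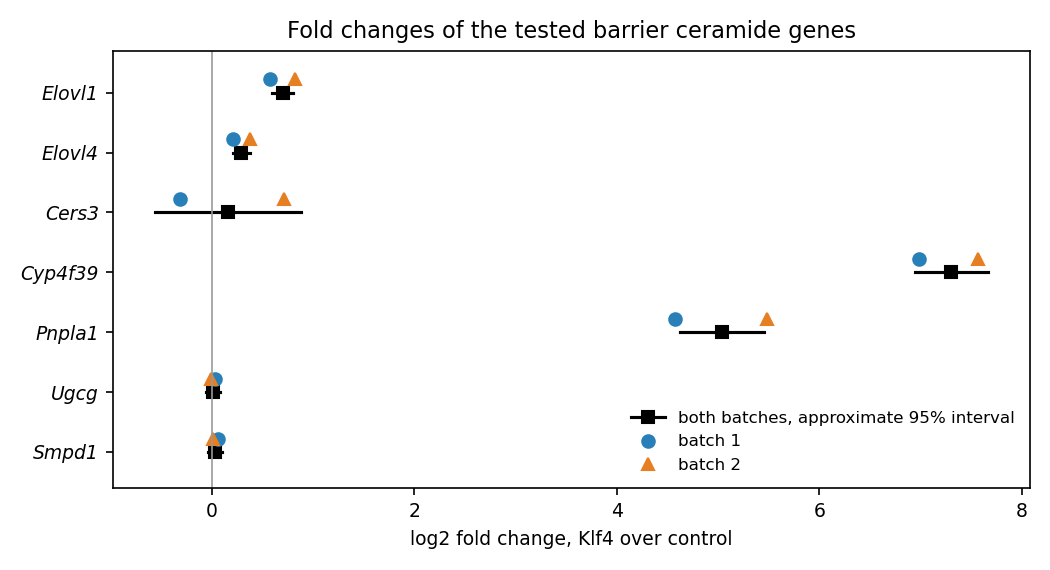
Log2 fold change of Klf4 over control libraries for the 7 genes tested, as black squares with the approximate 95% interval over both batches, blue circles for batch 1 and orange triangles for batch 2. Cyp4f39 at 7.30 and Pnpla1 at 5.04 stand far to the right of Elovl1 at 0.70 and Elovl4 at 0.29, and the intervals of Cers3, Ugcg and Smpd1 include 0.

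Beside these 8 genes, 53 other genes of ceramide metabolism were listed in 5 groups, of which 48 were tested. Of these, 18 were higher and 3 lower, or 43.8% called against 36.6% of all tested genes, and their median log2 fold change was 0.08 against -0.01 for all tested genes. Among the 48, Tgm1 and Ephx3 passed the filter only through their Klf4 libraries, so the count is not evidence about the list. The 5 left untested were Sptlc3, Sptssb, Nipal4, Lipn and Acer1.

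Among 11 other genes of fatty acid elongation, all tested, 3 were higher and 0 lower (27.3%), with a median log2 fold change of 0.06. Elovl7, an elongase of saturated and polyunsaturated chains, had 581, 604, 463 and 505 counts in control and 1234, 998, 1232 and 1226 counts in Klf4 replicates 1 to 4. Its rise (log2 fold change 1.06, SE 0.07, adjusted p = 9.98e-12) exceeded those of Elovl1 and Elovl4. Elovl6, which starts elongation from palmitate, rose by 0.15 (SE 0.03, adjusted p = 0.000635) and lost the call without a batch term (adjusted p = 0.194). Hacd4, a dehydratase of the elongation cycle, had 10 to 18 counts in control and 23 to 30 in Klf4 libraries (log2 fold change 0.89, SE 0.32, adjusted p = 0.0309), and 6 of 16 alternatives ended this call. Exons of Hacd4 overlap Focad on the opposite strand, so its reads are uncertain. The other enzymes of the cycle, among them Hsd17b12 (0.06, adjusted p = 0.181) and Tecr (0.05, adjusted p = 0.163), did not pass.

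In sphingoid base synthesis 3 of 9 tested genes were higher and 0 lower (33.3%), with a median log2 fold change of 0.08. Degs2, which makes the phytosphingosine bases common in skin, rose by 0.27 (SE 0.05, adjusted p = 8.99e-05). Its control libraries held 25.9, 27.5, 18.3 and 18.4 CPM and its Klf4 libraries 32.7, 33.9, 21.2 and 21.2 CPM, so the groups overlapped overall and separated within each batch. Its exons overlap Evl on the opposite strand. Kdsr, the ketodihydrosphingosine reductase, rose by 0.18 (SE 0.05, adjusted p = 0.00428), and Sptlc2, a subunit of serine palmitoyltransferase, by 0.11 (SE 0.03, adjusted p = 0.0156). All 3 calls were lost without a batch term, with adjusted p-values of 0.337, 0.187 and 0.112. In all, 4 of 17 alternatives ended the Sptlc2 call.

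Of the 5 other ceramide synthases, all tested, 1 was higher and 2 were lower. Cers5, which prefers palmitoyl chains, had 243.8, 243.0, 262.8 and 254.2 CPM in control and 300.0, 286.3, 318.7 and 325.8 CPM in Klf4 replicates 1 to 4. Its groups did not overlap (log2 fold change 0.29, SE 0.03, adjusted p = 6.52e-09), a difference similar in size to that of Elovl4. Cers2, the broadly expressed synthase of very long chains, had a log2 fold change of -0.09 (SE 0.03, adjusted p = 0.0172), and Cers1, the synthase of neurons and muscle, -0.27 (SE 0.09, adjusted p = 0.0197). Without a batch term these calls were lost, with adjusted p-values of 0.162 for Cers2 and 0.274 for Cers1. The Cers2 call was also lost with factors from abundant genes (adjusted p = 0.142). In all, 3 of 17 alternatives ended the Cers1 call and 2 of 17 the Cers2 call. Cers1 overlaps Gdf1 on the same strand and Cers2 overlaps Setdb1 on the opposite one, so their reads are uncertain. Cers4 (0.08, adjusted p = 0.519) and Cers6 (-0.02, adjusted p = 0.679) did not pass, so that Cers5 was the only one called higher of the 6 synthases with Cers3 included.

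The group listed for acylceramide and the lipid envelope included the largest other increases. Of its 10 genes, 8 were tested, 5 were higher and 0 lower (62.5%, against 36.6% of all tested genes). Tgm1 and Ephx3 passed the filter only through their Klf4 libraries, so the count is not evidence about the group. Alox12b, the lipoxygenase that oxidises the linoleate of acylceramide, had 36, 30, 30 and 32 counts in control and 1516, 1250, 1912 and 2104 counts in Klf4 replicates 1 to 4 (log2 fold change 5.64, SE 0.10, adjusted p = 8.2e-22). Its partner Aloxe3 went from 3.02 ± 0.298 to 4.77 ± 0.892 CPM (SD, n = 4), a log2 fold change of 0.66 (SE 0.13, adjusted p = 0.000276). Tgm1, the transglutaminase of the cornified envelope, had 16, 19, 10 and 8 counts in control and 721, 554, 780 and 759 counts in Klf4 libraries (log2 fold change 5.65, SE 0.15, adjusted p = 1.76e-18).

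Sdr9c7, a dehydrogenase that follows the lipoxygenases, rose from 12 to 19 counts to 26 to 44 counts (log2 fold change 1.07, SE 0.30, adjusted p = 0.00664), and Aldh3a2, a fatty aldehyde dehydrogenase, rose by 0.15 (SE 0.03, adjusted p = 0.00101). Abhd5, the co-activator of PNPLA1 (0.16, adjusted p = 0.072), and Slc27a4, a fatty acid transporter (-0.04, adjusted p = 0.311), did not pass, and neither did Ephx3 (0.20, adjusted p = 0.736). Lipn had 0 counts in every control library and 4 to 9 in Klf4 libraries. In this group too, the change was therefore large in some genes and not called in others.

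Of 16 genes of ceramide conversion and turnover, 15 were tested, 6 were higher and 1 lower (46.7%), with a median log2 fold change of 0.05. The most changed was Sgms2, a sphingomyelin synthase of the plasma membrane, at 27.3, 28.3, 26.1 and 24.8 CPM in control and 36.2, 32.9, 39.2 and 37.1 CPM in Klf4 replicates 1 to 4 (log2 fold change 0.45, SE 0.05, adjusted p = 4.3e-07). Of the 2 lactosylceramide synthases, B4galt5 rose by 0.24 (SE 0.04, adjusted p = 8.5e-06) and B4galt6 fell by 0.12 (SE 0.03, adjusted p = 0.00651). The B4galt6 call was lost with factors from abundant genes (adjusted p = 0.0547). Cerk, the ceramide kinase, rose by 0.17 (adjusted p = 9.2e-05) and Psap, the precursor of the saposins, by 0.09 (adjusted p = 0.00594). The Psap call was lost without a batch term (adjusted p = 0.0904) and without control replicate 3 (adjusted p = 0.0792).

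The alkaline ceramidase Acer3 rose by 0.22 (adjusted p = 0.0378), and 9 of 17 alternatives ended the call, the replicate block included (adjusted p = 0.0547). Acer1, the ceramidase of the upper epidermis, had 0 counts in every control library and 11, 6, 15 and 12 in Klf4 replicates 1 to 4, and was not tested. The neutral sphingomyelinases Smpd2 (-0.00), Smpd3 (0.05) and Smpd4 (-0.11) did not pass, as Smpd1 did not.

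**Figure D3:**
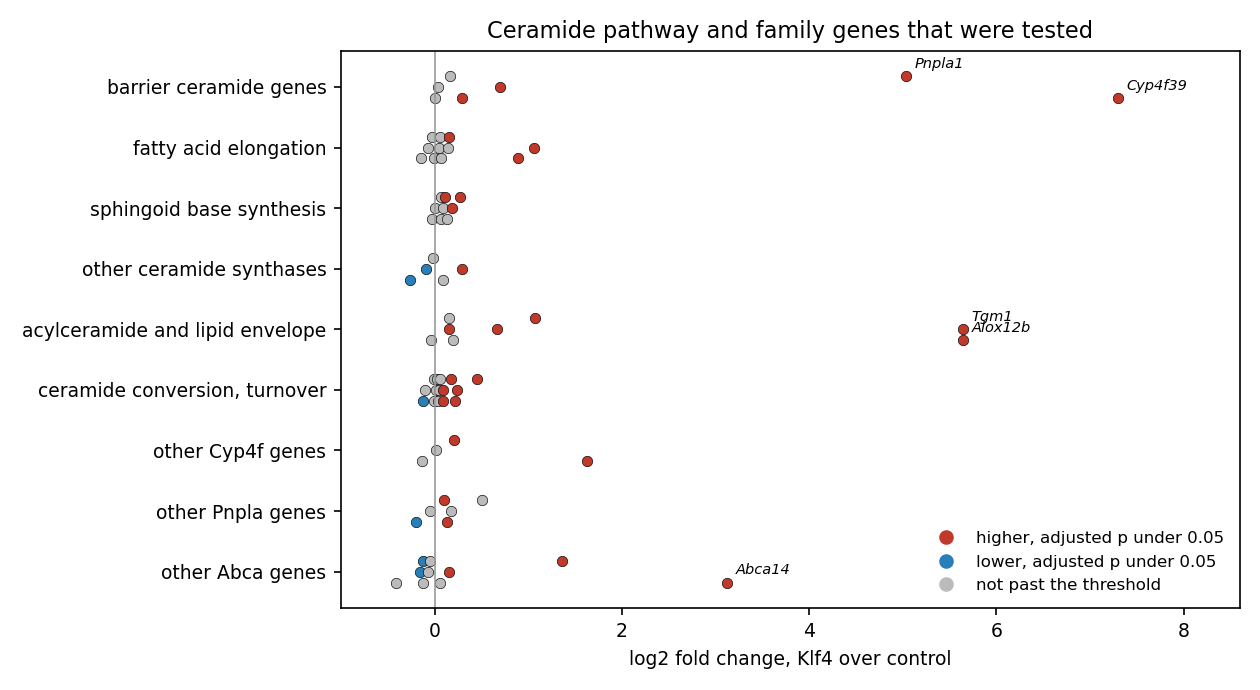
Log2 fold change of Klf4 over control libraries for each tested gene (1 point each) of the barrier ceramide genes, 5 groups of ceramide metabolism and 3 gene families, in red where higher, blue where lower and grey where the test was not passed. Most points lie near 0, and Cyp4f39, Pnpla1, Alox12b, Tgm1 and Abca14 lie above 3.

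Relatives of the genes were read in the same fit, where 21.1% of all tested genes were higher and 15.5% lower. Of 8 other Cyp4f genes, 4 were tested and 2 were higher, of which Cyp4f14 passed the filter only through its Klf4 libraries. Cyp4f14, a liver enzyme, had 8, 13, 9 and 3 counts in control and 34, 19, 29 and 25 in Klf4 libraries (log2 fold change 1.63, SE 0.38, adjusted p = 0.00143), and Cyp4f16 rose by 0.20 (adjusted p = 0.0088, and 0.0723 without a batch term). Cyp4f13 (0.01) and Cyp4f17 (-0.13) did not pass. Of 6 other Pnpla genes, all tested, Pnpla2, the adipose triglyceride lipase, rose by 0.13 (adjusted p = 0.0165), Pnpla8 rose by 0.10 (adjusted p = 0.037) and Pnpla7 fell by 0.20 (adjusted p = 0.00147). The call was lost in 4 of 17 alternatives for Pnpla2, 10 of 17 for Pnpla8 and 1 of 17 for Pnpla7.

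Of 15 other Abca genes, 10 were tested, 3 were higher and 2 lower, and Abca13 and Abca14 passed the filter only through their Klf4 libraries. Abca14 had 4, 6, 3 and 2 counts in control and 25, 30, 37 and 51 in Klf4 libraries (log2 fold change 3.13, SE 0.41, adjusted p = 1.56e-06). Abca13 rose by 1.36 (adjusted p = 0.0258), a call that 7 of 16 alternatives ended, and Abca7 by 0.15 (adjusted p = 0.000255). Abca3 fell by 0.13 and Abca5 by 0.16 (adjusted p = 0.00155 and 0.00374), and both calls were lost without a batch term (adjusted p = 0.448 and 0.132).

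The genes beside each member were examined in the same fit. Cyp4f39 lies between Pglyrp2, a peptidoglycan amidase gene 28.6 kb before it, and Cyp4f17, 12.7 kb after it. Pglyrp2 had 0, 0, 0 and 6 counts in control and 13, 14, 34 and 24 in Klf4 libraries (log2 fold change 3.69, SE 0.63, adjusted p = 5.83e-05). Without control replicate 4, which holds all of its control counts, the fitted value was 7.21 and the control group was at 0. Cyp4f17 had a log2 fold change of -0.13 (adjusted p = 0.533). Pnpla1 lies between Brpf3, 18.5 kb before it (0.05, adjusted p = 0.249), and 4930539E08Rik, 6.08 kb after it, which rose by 1.07 (SE 0.24, adjusted p = 0.00121). Neither neighbour passed for Elovl1 (Med8, -0.08, and Cdc20, -0.02), for Elovl4 (Sh3bgrl2, 0.24, and Ttk, 0.02) or for Abca12 (Bard1, 0.13, and Atic, -0.07). The call was gained in 4 of 17 alternatives for Atic, 2 for Bard1 and 1 for Med8.

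Both neighbours of Smpd1 rose although Smpd1 did not pass. Cavin3, a caveola gene 72.1 kb before it, had 15, 25, 17 and 13 counts in control and 217, 168, 286 and 271 in Klf4 libraries (log2 fold change 3.66, SE 0.19, adjusted p = 2.45e-13), and Apbb1, whose end lies 94 bases from that of Smpd1, rose by 0.17 (adjusted p = 3.55e-05). Beside Ugcg, Gng10 did not pass (0.13) and Susd1 fell by 0.15 (adjusted p = 0.00549, and 0.0668 without a batch term). Beside Cers3, Lins1 fell by 0.15 (adjusted p = 0.0498), a call that 12 of 17 alternatives ended, and Adamts17 did not pass (-0.33, adjusted p = 0.0506) but gained the call in 5 of 17 alternatives.

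**Figure D4:**
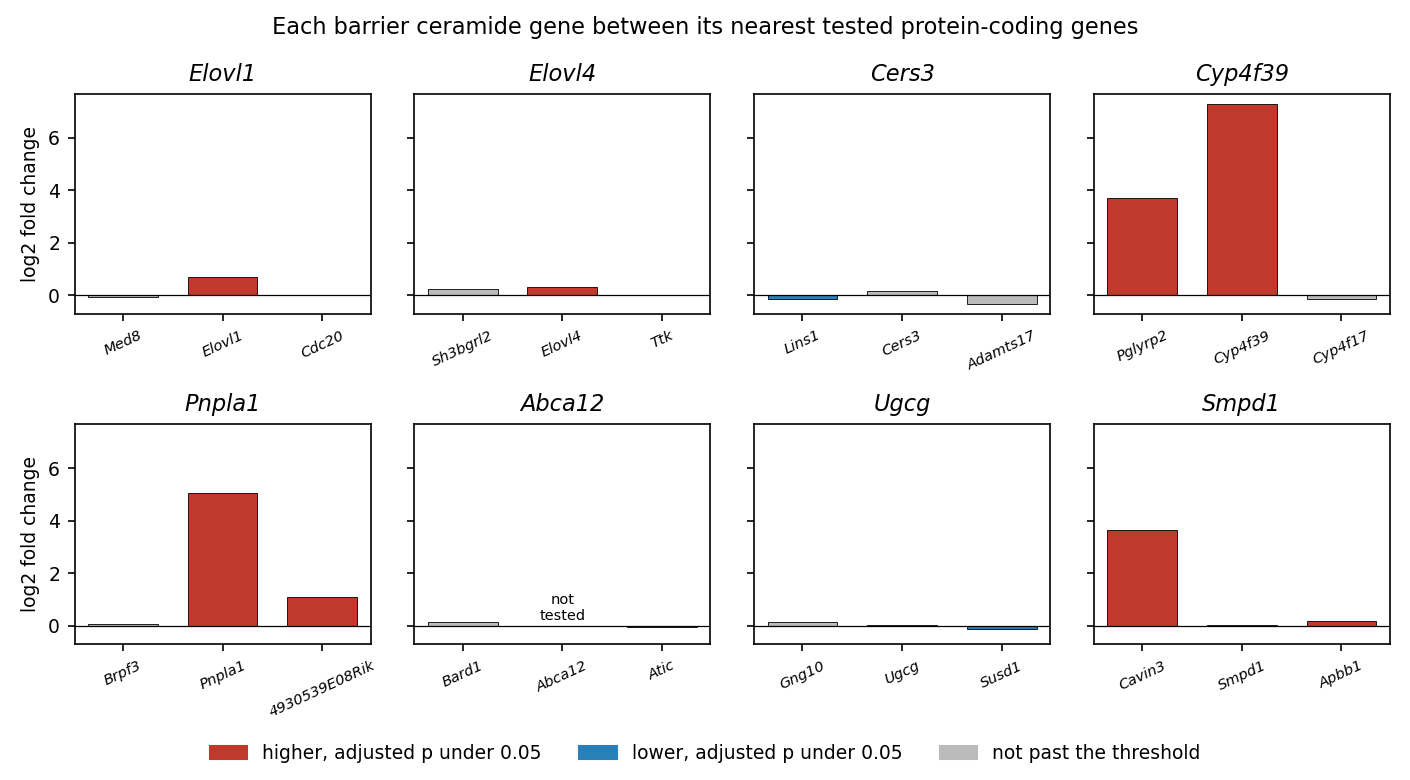
Log2 fold change of Klf4 over control libraries for each of the 8 genes (middle bar) and the nearest tested protein-coding gene on either side in chromosome order, in red where higher, blue where lower and grey where the test was not passed. The bar of Cyp4f39, 7.30, stands between 3.69 for Pglyrp2 and -0.13 for Cyp4f17, that of Pnpla1, 5.04, between 0.05 and 1.07, and Abca12 was not tested.

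The genes whose log2 CPM was most like that of Cyp4f39 across the 8 libraries were Capg, Nlrp10 and Spink2, with a Pearson r of 0.997, 0.996 and 0.995 among 12869 genes compared. The points form 2 groups that share their batches, so these values rest mainly on the difference between the groups, and 703 genes had an r over 0.95. Capg, an actin-capping protein gene, had 10, 17, 18 and 3 counts in control and 707, 641, 1205 and 1119 in Klf4 replicates 1 to 4. Nlrp10 went from 0.533 ± 0.193 to 6.96 ± 0.868 CPM, and Spink2, a protease inhibitor gene, from 0.378 ± 0.102 to 13.6 ± 2.08 CPM (SD, n = 4).

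Markers of other cell types were read in the same libraries. Of 10 keratinocyte markers, 5 were tested and 4 were higher, against 21.1% of all tested genes. All 4 passed the filter only through their Klf4 libraries, which favours genes higher there, so the count is not evidence about the group. The summed level of the 10 was 4.04 to 4.50 CPM in control and 25.8 to 38.8 CPM in Klf4 libraries. Krt14 alone made up 16.9 to 29.1 CPM of the latter. Krt10, which did not pass (0.13, adjusted p = 0.370), made up 3.72 to 4.18 CPM of the control sum. Krt14 had 0, 0, 0 and 1 counts in control and 969, 766, 1528 and 1452 in Klf4 libraries, whereas Trp63, the regulator of basal keratinocytes, and Ivl, involucrin, had 0 counts in all 8 libraries. Of 4 fibroblast markers, all tested, 3 were higher, of which Dcn and Pdgfra passed the filter only through their Klf4 libraries, with a sum of 2.61 to 3.82 CPM in control and 20.99 to 27.4 CPM in Klf4 libraries. Dcn alone made up 14.2 to 21.3 CPM of the latter, and Col1a2 did not pass (0.09, adjusted p = 0.734). Of 4 immune markers, 2 were tested and 0 were called, with a sum of 5.94 to 6.55 and 5.97 to 7.40 CPM. The part of Krt14, Dcn and the other called markers in the results for Cyp4f39 and Pnpla1 was not tested.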

How the data were processed

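Polyadenylated RNA of 8 MIN6 libraries, 4 per group, had been sequenced. The authors deposited whole-number read counts per gene, 1 column per library, not normalised. Trimming with cutadapt is recorded only in the name of the deposited table. The submitters' processing notes name FastQC, STAR, featureCounts, edgeR and the mm10 build, without versions or roles. The strand setting is not given in the sources used here, so reads of overlapping genes cannot be assigned with certainty. All 55536 identifiers and symbols matched GENCODE M21 (GRCm38, the build of mm10), which gave coordinates and exon lengths.

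Counts were fitted in edgeR 4.0.16 (limma 3.58.1, R 4.3.3) with terms for batch and plasmid, the design the series names. filterByExpr with a minimum count of 10 kept 18266 genes, TMM factors scaled the libraries, and glmQLFit with glmQLFTest gave p-values, adjusted by Benjamini-Hochberg over all tested genes with a threshold of 0.05. SEs were the log2 fold change divided by the square root of F, and the intervals (95%) are approximate. CPM values were computed here from the deposited counts with the TMM factors. Single values were compared by two-sided exact permutation over 70 relabellings. Within-batch fold changes came from a fit with an interaction term. The procedure was tested on simulated data.

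Replicate numbers in the sample titles are shared by the groups. Deviations from the group means correlated at 0.39 to 0.55 between same-numbered libraries over 10485 genes, and at -0.04 in batch 1 and 0.05 in batch 2 once batch means were taken out. Replicates of the same batch then give the same value, so these values cannot settle whether the numbers pair libraries beyond batch. The replicate block served as an alternative. Libraries of a group differed beyond sampling noise in every pair (chi-square per degree of freedom 3.96 to 21.1), so all were kept.

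The members and gene lists were chosen with earlier results of these data known. Named were the 8 members, Klf4, the genes of the pathway and family lists past the threshold, the nearest tested protein-coding genes, and the 3 genes most like the most changed member above a mean log2 CPM of 1. List genes that did not pass and the marker genes named were added after their values were seen. Alternatives were no batch term, a replicate block, 3 other scalings, DESeq2 1.42.0, limma-voom, 2 other filters, a threshold of 0.01 and the omission of each library. DESeq2's test of the interaction and the permutation within batches (36 relabellings) were added after the data were seen. A gene covered by the rule is not reported here, though counts over its list include it. Figures were drawn with matplotlib 3.10.9.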

Additional observations from a re-analysis of the deposited data

Results flagged for a closer look

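Klf4 replicate 2 had 45417853 counts in total, whereas the other libraries of its group had 51891997 to 52731176, a gap of 0.885 of the group's range. It was the only library singled out in 20 groups checked, where chance gives about 1. Without it the same number of members, 4, was called.

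The effect on Klf4 itself was larger in batch 2 than in batch 1 by 0.371 on the log2 scale (edgeR interaction test, adjusted p = 0.0057). For none of the 7 barrier ceramide genes tested did the difference between batches pass after adjustment.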

How the results depend on the processing

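Under every alternative run, 4 members were called, and Cyp4f39, Pnpla1, Elovl1 and Elovl4 kept their direction and call. Log2 fold changes ranged from 6.89 to 7.59 for Cyp4f39, 4.66 to 5.17 for Pnpla1, 0.65 to 0.73 for Elovl1 and 0.23 to 0.33 for Elovl4. With the replicate block in place of batch, 6284 genes changed against 6684, and 4 members. Acer3 and Lins1 lost their call under it (adjusted p = 0.0547 and 0.0762), and it changed no other call of a gene named here. Without a batch term 4116 genes changed, all among the 6684. The number of genes whose effect differed between batches was 140, and ran from 48 without Klf4 replicate 2 to 261 without control replicate 1 when a library was left out. Without control replicates 3 and 4 and Klf4 replicate 1 in turn it was 78, 77 and 82. Ugcg, which was not called, turned to -0.0011 without a filter and lay between -0.0249 and 0.0218 when a library was left out. Cdc20, not called either, was 0.0187 with factors from abundant genes and -0.0626 to 0.0271 with a library left out, and Ttk was -0.0372 to 0.0352 in the same way. Of 48 other called genes followed through the alternatives, 20 lost the call in at least 1 alternative. The 48 include the called keratinocyte and fibroblast markers, which the naming rule does not cover and none of which lost the call. Depth limits Cers3 and Abca12, with 10 to 27 and 1 to 10 counts per library.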
